A study of Mus musculus with 12 samples.

Results

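The TRIM genes encode the tripartite motif proteins, most of them ubiquitin ligases, and were followed here in cultured mouse astrocytes in which GADD45G had been introduced or Gadd45g targeted by shRNA. Members were chosen by symbol and biotype, as every protein-coding gene whose symbol is Trim followed by a digit. This gave 60 genes of the 27587 listed in all, of which 59 were listed in the overexpression experiment, 56 in the knockdown experiment and 55 in both. The only measured values behind that choice are the read counts that put a gene in a table, but the family was singled out with its fold changes in both experiments known, so counts over it are a description. Of the 60 genes, 18 formed the antiviral class and 42 the remainder of the family. The class is a fixed list of restriction factors from the gene cluster described below and of regulators of RNA and DNA sensing. Another list could divide the family otherwise, and counts by class depend on the one used.

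Most TRIM proteins carry a RING finger that recruits a ubiquitin-conjugating enzyme, 1 or 2 B-box zinc fingers and a coiled coil, and the carboxy-terminal domain usually sets what the protein binds. Many antiviral members end in a PRY/SPRY domain that recognises viral capsids or signalling proteins, and they act either on the virus itself or on the RNA and DNA sensing pathways that lead to type I interferon. Several of them are known interferon-stimulated genes. Other members serve axons, chromatin, endoplasmic reticulum membranes or muscle.

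RNA sequencing of total RNA was carried out on 12 libraries of primary astrocytes from the cortex of wild-type C57BL/6J mice taken at postnatal day 3. All cultures were purified, transduced and then kept for 1 week in medium without serum. The overexpression experiment set 3 libraries of cells given GADD45G against 3 given GFP, and the knockdown experiment set 3 libraries of cells given an shRNA to Gadd45g, labelled shGADD45G, against 3 labelled shLuc. Neither the virus, the promoter driving GADD45G nor the species of its sequence is named in the labels. Whether replicates were separate cultures is not stated either, and p-values then cover only a spread that may be technical.

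Total counts over listed genes ran from 15626655 to 20756461 per library. Gadd45g itself stood at 150, 144 and 139 CPM (counts scaled to the same library size) in GADD45G libraries, against 121, 133 and 134 CPM in GFP libraries (log2 fold change 0.15, SE 0.05, adjusted p = 0.0298, edgeR's quasi-likelihood test). It stood at 67.2, 147 and 122 CPM in shGADD45G libraries, against 140, 151 and 129 CPM in shLuc libraries (-0.32, SE 0.22, adjusted p = 0.408), so the knockdown did not pass the test and groups are named by their labels alone. GADD45G library 3 stood apart: its summed erythroid markers reached 369 CPM, against at most 0.383 CPM in any other library of that experiment. Its microglia and macrophage markers summed to 168 CPM, against 28.5 CPM in both other GADD45G libraries and 73.1 to 76.9 CPM in GFP libraries. Its endothelial markers summed to 33.4 CPM, against at most 0.870 CPM in any other library of that experiment. Its fibroblast markers summed to 399 CPM, against 163 and 172 CPM in the other GADD45G libraries and 402 to 417 CPM in GFP libraries. Its muscle markers summed to 13.2 CPM, against 1.68 and 2.61 CPM in the other GADD45G libraries and 6.31 to 8.31 CPM in GFP libraries. The 8 astrocyte markers, all measured, summed to 4077 to 4654 CPM in GADD45G libraries and 2411 to 2420 CPM in GFP libraries, with 7 of 8 called higher. Over all genes tested there, 30.6% were called higher. The astrocyte markers summed to 3394 to 3545 CPM in shGADD45G libraries and 4467 to 4508 CPM in shLuc libraries, with 5 of 8 called lower. Over all genes tested in the knockdown experiment, 5.27% were called lower. In these bulk samples fewer cells of a type and less RNA per cell cannot be told apart. The 14 microglia and macrophage markers summed to 27.0 to 68.6 CPM in shGADD45G libraries and 228 to 278 CPM in shLuc libraries, with 12 of 14 called lower and none at 0, and their part in the results below was not tested.

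Of the 18 antiviral genes, 10 lie side by side on chromosome 7, within 289 kb from 104218793 to 104507849 (mm10). In order along the chromosome they are Trim6, Trim34a, Trim5, Trim12a, Trim34b, Trim12c, Trim30b, Trim30c, Trim30a and Trim30d. The window held 14 listed genes, and its 4 other listed genes are named by clone or model numbers only. The promoters of Trim30a and Trim30d, the pair with the largest fold changes of the cluster, are shown first because they carry the same interferon-type motif in nearly the same setting. Sequences are RefSeq promoters of build GRCm38.p6, the assembly behind mm10, from 250 bases before to 50 after an annotated start, written in the direction of transcription. Capitals mark a match to the core of the interferon-stimulated response element (ISRE), GAAA, any 2 bases and GAAA, on either strand; on the opposite strand it reads TTTC, any 2 bases and TTTC.
Trim30a, chr7:104465144-104465443, minus strand: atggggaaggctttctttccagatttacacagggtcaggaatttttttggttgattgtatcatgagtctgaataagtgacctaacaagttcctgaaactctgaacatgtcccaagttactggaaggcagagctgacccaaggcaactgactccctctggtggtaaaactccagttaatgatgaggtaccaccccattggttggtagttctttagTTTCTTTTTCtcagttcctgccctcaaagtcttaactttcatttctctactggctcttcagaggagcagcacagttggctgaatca
Trim30d, chr7:104507800-104508099, minus strand: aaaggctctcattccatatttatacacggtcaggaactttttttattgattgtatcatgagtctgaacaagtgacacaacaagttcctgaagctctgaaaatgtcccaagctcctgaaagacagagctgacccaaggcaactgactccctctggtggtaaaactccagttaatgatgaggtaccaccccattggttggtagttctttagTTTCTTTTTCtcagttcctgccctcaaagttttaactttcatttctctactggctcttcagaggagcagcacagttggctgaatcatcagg
Over 295 aligned bases these 2 promoters were identical at 276, or 93.6%. The first base of the match lay at -36 from the annotated start of Trim30a, its more distal start of those in the table, and at -41 from that of Trim30d, with the start base as 0. A further annotated start of Trim30a also had a match. The other antiviral genes with one are shown by the matched stretch with 25 bases on each side, to let the motif be compared between genes.
Trim34a, chr7:104244442-104244501, plus strand: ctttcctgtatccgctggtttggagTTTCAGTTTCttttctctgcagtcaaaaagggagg
Trim5, chr7:104288121-104288180, minus strand: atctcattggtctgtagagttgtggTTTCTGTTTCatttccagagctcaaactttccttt
Trim12a, chr7:104315451-104315510, minus strand: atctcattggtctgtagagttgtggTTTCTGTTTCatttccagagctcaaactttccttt
Trim12c, chr7:104353344-104353403, minus strand: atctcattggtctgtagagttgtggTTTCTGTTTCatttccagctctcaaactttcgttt
Trim21, chr7:102565433-102565494, minus strand: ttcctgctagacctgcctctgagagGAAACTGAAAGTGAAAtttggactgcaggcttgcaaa
Trim26, chr17:36836961-36837026, plus strand: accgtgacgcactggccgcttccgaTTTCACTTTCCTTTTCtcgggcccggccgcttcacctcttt
In Trim21 and Trim26 the capitals cover 2 overlapping matches. In the stretches shown, Trim5, Trim12a and Trim12c share every base up to the end of the match. Of the 60 members, 46 were matched in the RefSeq table. A gene with several promoters there was counted if any of them held a match. An ISRE match was present in 8 of the 16 antiviral genes with a promoter there and in 1 of the 30 other members (3.33%), Trim2. The match was present in 3.99% of all 27025 genes with RefSeq promoters and in 3.44% of all 32851 promoters of this length. The core of the gamma-activated site (GAS), TTCNNNGAA, was present in 3 of 16 antiviral genes, 2 of 30 other members and 9.55% of all genes. A match is a description of letters and not a bound site, and the absence of one covers this window alone.

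The question of the overexpression experiment was what GADD45G does to gene expression in astrocytes, relative to GFP. The antiviral TRIM genes were mostly higher in GADD45G libraries. Of 15 antiviral genes tested, 13 were called higher, 1 was called lower and 1 was not called, where called means an adjusted p under 0.05, by edgeR over all genes tested. The background in this comparison is high, since 60.3% of the 15418 genes tested were called, 30.6% higher and 29.7% lower. Groups did not overlap in 66.5% of the genes tested, and in 33.7% every GADD45G library lay above every GFP library. The median log2 fold change of the 15 genes was 1.25, against 0.01 over all genes tested. At least 2-fold higher were 8 of the 15, where 9.07% of all genes tested passed that limit. Summed over the 18 antiviral genes, the level was 965, 1003 and 927 CPM in GADD45G libraries, against 402, 393 and 397 CPM in GFP libraries. The sums of these groups did not overlap, and GADD45G library 3, which stood apart in its markers, had the lowest of the 3 GADD45G sums. Without that library 13 antiviral genes were again called higher.

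**Figure D1:**
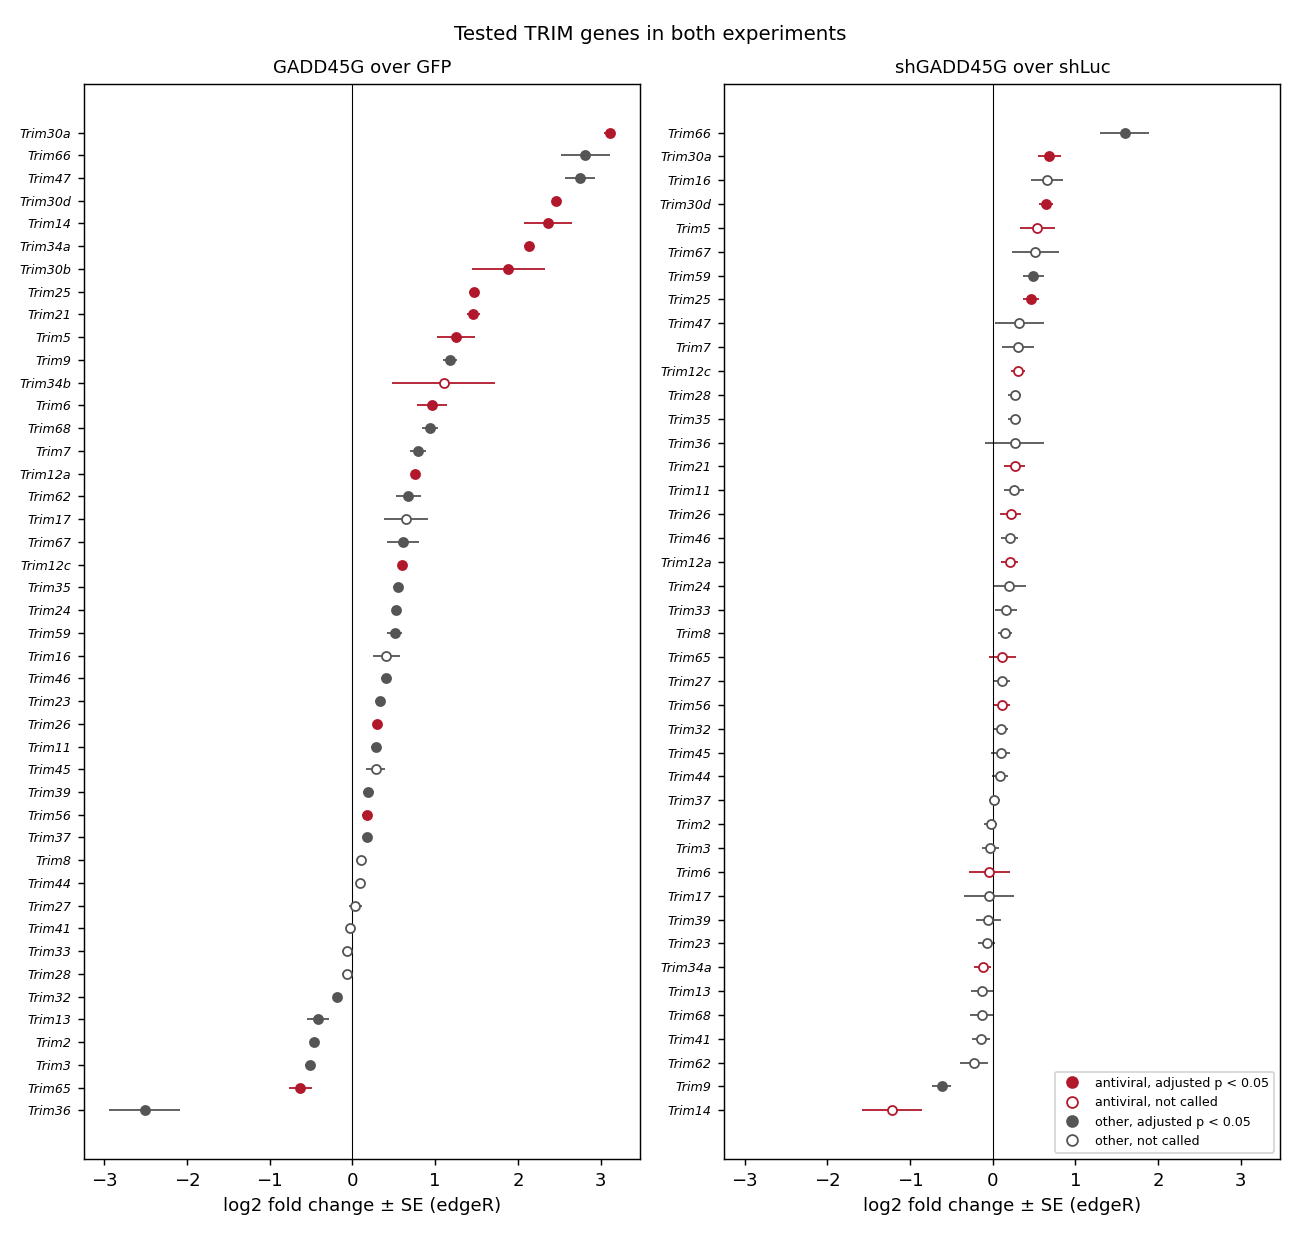
Log2 fold change with its standard error for each tested TRIM gene, GADD45G over GFP on the left (44 genes) and shGADD45G over shLuc on the right (42 genes). Red points are antiviral genes and grey points the others, filled where the adjusted p was under 0.05; on the left 13 filled red points lie above 0 and 1 below, and on the right 3 filled red points lie above 0.

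Trim30a, which in mice dampens Toll-like receptor signalling to NF-kB, was the member with the largest fold change. Its level was 246, 255 and 231 CPM in GADD45G libraries, against 29.0, 26.2 and 29.7 CPM in GFP libraries. Every GADD45G library lay far above every GFP library (log2 fold change 3.11, SE 0.06, adjusted p = 2.44e-11). Its neighbour Trim30d stood at 130, 135 and 122 CPM in GADD45G libraries, against 23.2, 24.2 and 22.7 CPM in GFP libraries. The spread within either group was small beside that gap (log2 fold change 2.46, SE 0.06, adjusted p = 5.15e-11). The low-abundance paralogue Trim30b had 0.726, 0.980 and 0.887 CPM in GADD45G libraries, against 0.153, 0.239 and 0.293 CPM in GFP libraries. It was called higher on 47 counts against 14 (log2 fold change 1.88, SE 0.45, adjusted p = 0.00361), while Trim30c, with 16 counts in GADD45G libraries and 1 in GFP libraries, fell below the filter on low counts and was not tested.

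Trim34a, whose human counterpart TRIM34 acts with TRIM5 against retroviral capsids, stood at 65.1, 67.2 and 67.7 CPM in GADD45G libraries, against 15.1, 15.9 and 14.7 CPM in GFP libraries. The groups were widely separated (log2 fold change 2.13, SE 0.05, adjusted p = 1.04e-10). Its paralogue Trim34b had 1.12, 0.436 and 0.998 CPM in GADD45G libraries and 0.307, 0.765 and 0.0977 CPM in GFP libraries. These groups overlapped and the gene was not called (1.10, SE 0.62, adjusted p = 0.149), although without GFP library 2 the log2 fold change was 2.01 and the call was made (adjusted p = 0.0427). Trim5, Trim12a and Trim12c are the mouse relatives of primate TRIM5, which blocks incoming retroviral capsids. Trim12a stood at 51.7, 53.5 and 52.6 CPM in GADD45G libraries, against 31.7, 30.8 and 31.2 CPM in GFP libraries (0.75, SE 0.05, adjusted p = 1.55e-07). Trim12c stood at 88.3, 91.5 and 90.8 CPM in GADD45G libraries, against 60.3, 59.3 and 59.4 CPM in GFP libraries (0.60, SE 0.04, adjusted p = 4.45e-07). Both were thus higher in every GADD45G library by a moderate margin, as was Trim5 at 6.20, 8.71 and 5.32 CPM in GADD45G libraries, against 3.17, 2.30 and 3.03 CPM in GFP libraries (1.25, SE 0.23, adjusted p = 0.000661). Trim6, which in human cells makes the unanchored ubiquitin chains that activate IKK-epsilon, had 4.92, 5.50 and 4.93 CPM in GADD45G libraries, against 2.61, 2.49 and 2.79 CPM in GFP libraries (0.96, SE 0.18, adjusted p = 0.000871).

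Sequence shared between paralogues limits how far these values can be assigned to single genes. Of the 50-base windows of its annotated transcripts, Trim34b shared 56.8% with Trim34a, and Trim34a shared 59.7% with any other gene. The share was 36.6% in Trim5, 33.7% in Trim12c and 10.5% in Trim12a. It was 5.98% in Trim30a, 7.49% in Trim30d and 1.48% in Trim30b. The values of Trim34a, Trim34b, Trim5 and Trim12c are thus uncertain where reads could not be assigned to 1 copy. Of the 9 cluster genes tested, 8 were called higher, beside 30.6% of all genes tested. Of the 2 tested genes of the window that are not members, Gm16464 was called higher and Gm15133 was not called. Gm16464 is a pseudogene lying within Trim30d on the same strand. The 250 kb on either side of the window held no tested gene, so the cluster has no measured neighbours there.

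**Figure D2:**
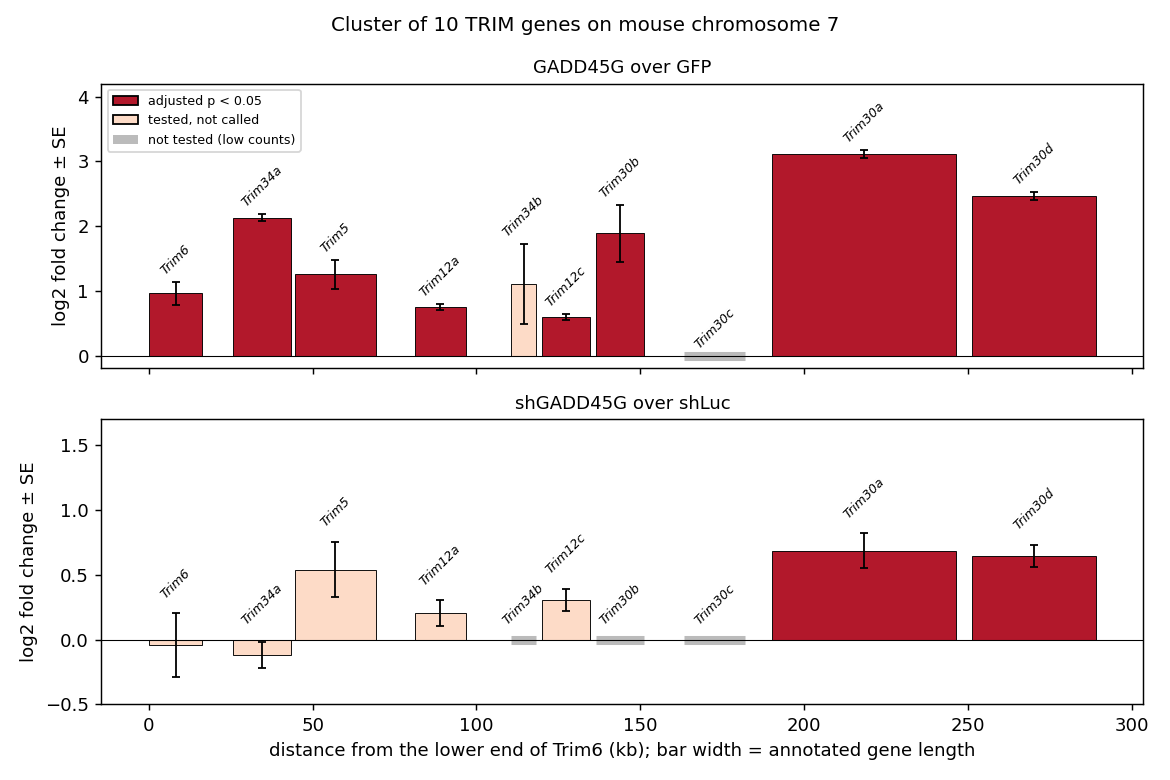
Log2 fold change with its standard error for the 10 genes of the chromosome 7 cluster, drawn at their distance in kb from the lower end of Trim6 with bars as wide as the annotated genes, GADD45G over GFP above and shGADD45G over shLuc below on a smaller scale. Trim30a and Trim30d, at the right end, are the only bars called in both panels, at 3.11 and 2.46 above and 0.69 and 0.64 below; grey stubs mark genes not tested.

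Outside the cluster 6 antiviral genes were tested, and 5 were called higher, beside 30.6% of all genes tested. Trim25, which ubiquitinates the RNA sensor RIG-I, stood at 139, 140 and 132 CPM in GADD45G libraries, against 51.5, 46.3 and 50.4 CPM in GFP libraries. Trim21, a cytosolic antibody receptor that marks antibody-coated viruses for degradation, stood at 38.4, 35.7 and 34.0 CPM in GADD45G libraries, against 12.4, 13.7 and 13.1 CPM in GFP libraries. Both were more than 2-fold higher with no overlap between groups, at log2 fold changes of 1.47 (SE 0.06, adjusted p = 1.95e-09) for Trim25 and 1.46 (SE 0.08, adjusted p = 3.86e-08) for Trim21. Trim14, a member without a RING finger that joins the mitochondrial adaptor MAVS in human cells, was scarce at 2.46, 2.67 and 2.83 CPM in GADD45G libraries, against 0.512, 0.430 and 0.586 CPM in GFP libraries (2.37, SE 0.29, adjusted p = 3.30e-05). The Trim14 gene overlaps Nans on the opposite strand, 29.5% of its 50-base windows also occur in Nans transcripts, and whether reads were counted by strand is not stated; Nans itself was not called (-0.18, adjusted p = 0.0933).

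Smaller differences were measured for Trim26, a regulator of IRF3 and NF-kB signalling, and Trim56, which acts on DNA and double-stranded RNA sensing. Trim26 stood at 63.5, 65.1 and 60.9 CPM in GADD45G libraries, against 51.7, 51.0 and 51.4 CPM in GFP libraries (log2 fold change 0.30, SE 0.05, adjusted p = 0.000167). Trim56 stood at 120, 134 and 114 CPM in GADD45G libraries, against 108 CPM in each GFP library (0.18, SE 0.06, adjusted p = 0.0243). Its call did not hold without GFP library 2 or 3 (adjusted p = 0.0894 and 0.102), without a filter on low counts (0.0662) or in 1 fit of all libraries (0.128). Trim65, which ubiquitinates the RNA sensor MDA5, was the 1 antiviral gene called lower. It had 5.87, 7.35 and 7.10 CPM in GADD45G libraries, against 11.2, 10.8 and 9.53 CPM in GFP libraries, without overlap (-0.63, SE 0.13, adjusted p = 0.00195). Trim65 and Trim47 overlap by 5365 bases on the same strand, so reads from the shared stretch cannot be assigned to 1 of them with certainty. Trim15 and Trim38 were listed at 42 and 11 counts over the 6 libraries and were not tested.

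All 8 antiviral genes with an ISRE match in the promoter window were called higher, with log2 fold changes from 0.30 in Trim26 to 3.11 in Trim30a and a median of 1.36. Of the 5 tested antiviral genes with a promoter in the table and no match, 4 were called higher, Trim25, Trim30b, Trim56 and Trim6, and Trim34b was not. The median of these 5 was 1.10, with values from 0.18 to 1.88. Over all genes tested, 30.6% were called higher. Trim2, the other member with a match, was called lower. Its match lay at only 1 of its annotated starts. In the knockdown experiment 2 of the 8 antiviral genes with a match and 1 of 3 without one were called higher, beside 5.15% of all genes tested.

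**Figure D3:**
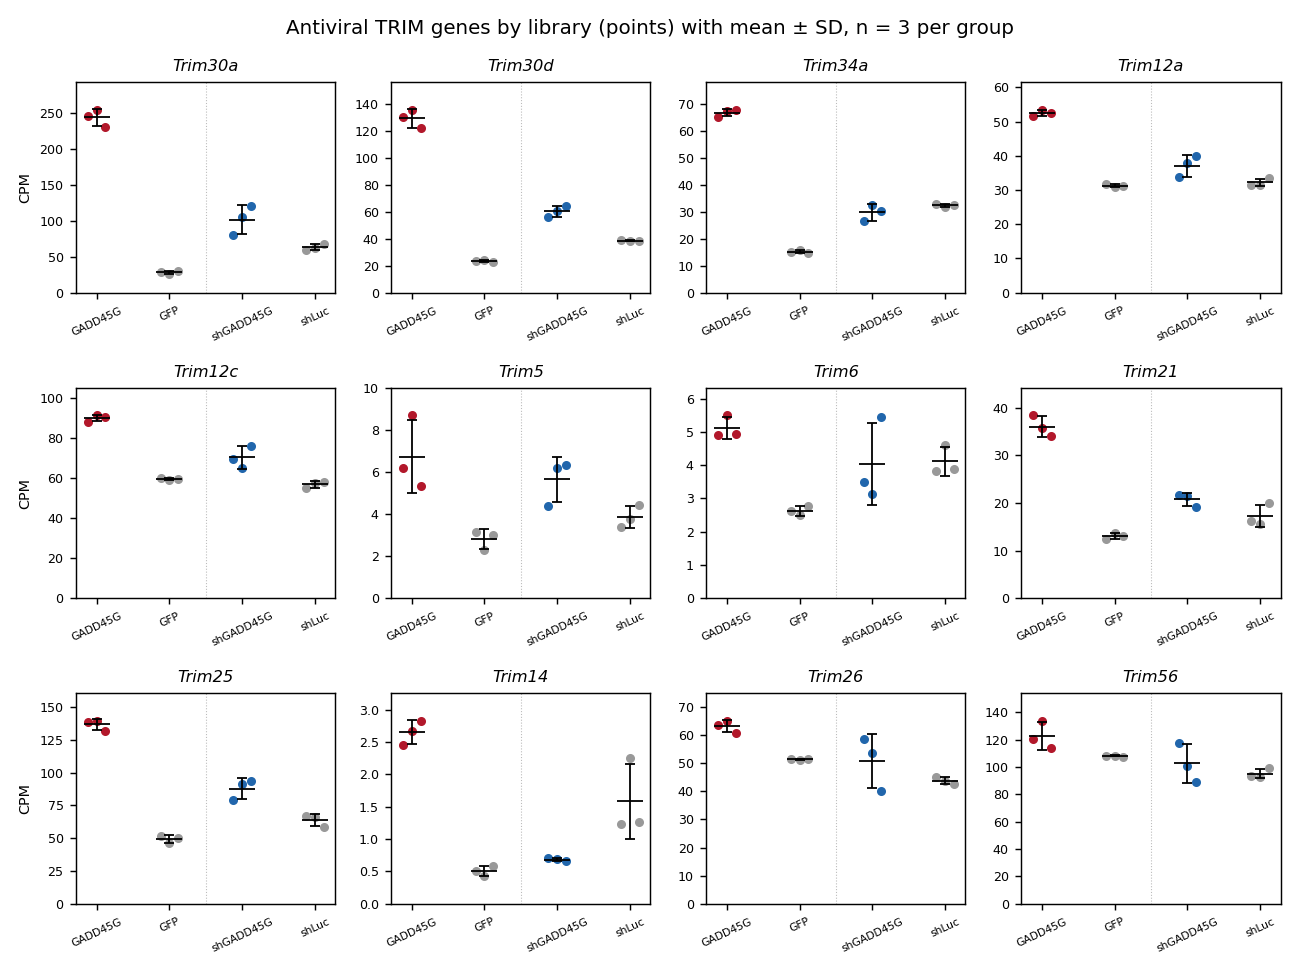
CPM of 12 antiviral TRIM genes in each library (points) with the group mean and SD as a bar, 3 libraries per group, each panel from 0 and on its own scale, with the 2 experiments set apart by a dotted line. In all 12 panels the GADD45G points lie above the GFP points, most widely in Trim30a (231 to 255 CPM against 26.2 to 29.7 CPM), whereas shGADD45G and shLuc points overlap in 6 of the 12 panels. Over all genes tested, every GADD45G library lay above every GFP library in 33.7%, and shGADD45G and shLuc groups did not overlap in 32.5%. Of the 15 antiviral genes tested in the overexpression experiment, Trim65 (called lower), Trim34b (not called) and Trim30b (called higher) are not drawn.

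The 42 remaining members divided more evenly. Of 29 tested in this experiment, 15 were called higher, 5 were called lower and 9 were not called, beside background shares of 30.6% and 29.7%. Their median log2 fold change was 0.28. Called and at least 2-fold higher were 3 (Trim66, Trim47 and Trim9, background 9.07%), and 1 was at least 2-fold lower (Trim36, background 9.64%). Without GADD45G library 3, 19 were called higher. Of all genes, 10143 were then called in either direction, against 9300 with every library. The summed level of the remaining members was 1902, 1895 and 1768 CPM in GADD45G libraries, against 1671, 1669 and 1647 CPM in GFP libraries. The sums did not overlap, and they differed far less in proportion than those of the antiviral genes.

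Of the 4 chromatin regulators, Trim24, Trim28 and Trim33 are transcriptional cofactors and Trim66 is a related heterochromatin-binding protein. Trim66 had 5.53, 4.41 and 4.71 CPM in GADD45G libraries, against 0.460, 0.622 and 0.977 CPM in GFP libraries. It was scarce in both groups, with the largest fold change outside the antiviral class (log2 2.82, SE 0.29, adjusted p = 9.10e-06). Trim24, a nuclear receptor cofactor that also ubiquitinates p53, was called higher at 66.5, 68.9 and 65.4 CPM in GADD45G libraries, against 47.9, 47.6 and 44.2 CPM in GFP libraries (0.52, SE 0.05, adjusted p = 4.04e-06). Trim28, the corepressor of KRAB zinc finger proteins, was not called and its groups overlapped (-0.07, SE 0.05, adjusted p = 0.256), nor was Trim33 (-0.06, SE 0.06, adjusted p = 0.430).

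Members of the group of p53, autophagy and inflammation regulators were called higher in 7 of 11 tested genes, beside 30.6% of all genes tested. Trim47 had 10.8, 9.31 and 12.4 CPM in GADD45G libraries, against 1.79, 1.63 and 1.42 CPM in GFP libraries. That difference far exceeded the spread in either group (log2 fold change 2.75, SE 0.18, adjusted p = 2.11e-07), with the overlap with Trim65 noted above. Trim35, which binds pyruvate kinase M2, was the most abundant member per length in all 4 groups in the authors' deposited FPKM, averaging 77.3 FPKM in GADD45G libraries and 53.1 FPKM in GFP libraries. On the CPM scale it stood at 386, 373 and 331 CPM in GADD45G libraries, against 248, 254 and 240 CPM in GFP libraries (0.55, SE 0.06, adjusted p = 9.74e-06). The other 5 called genes of the group had log2 fold changes of 0.67 (Trim62), 0.33 (Trim23, which also carries an ARF GTPase domain), 0.28 (Trim11), 0.19 (Trim39) and 0.18 (Trim37, a centriole regulator). The call of Trim39 was lost without GFP library 1, 2 or 3 (adjusted p = 0.0633, 0.147 and 0.0605), in DESeq2 (0.0689) and in 1 fit of all libraries (0.241). That of Trim37 was lost without GADD45G library 1 (0.103), GFP library 2 (0.120), GFP library 3 (0.0750) or the filter on low counts (0.0789). Trim8, Trim16, Trim27 and Trim45 were not called.

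The 7 neural ubiquitin ligases moved in both directions, 3 called higher and 4 called lower, beside background shares of 30.6% and 29.7%. Trim9, a regulator of axon branching in neurons, stood at 31.2, 33.9 and 28.3 CPM in GADD45G libraries, against 13.3, 14.1 and 13.9 CPM in GFP libraries. Its groups were well separated (log2 fold change 1.18, SE 0.08, adjusted p = 4.25e-07). Its close relative Trim67 had 0.61 (SE 0.20, adjusted p = 0.0196), a call lost without GADD45G library 1 or 2 (0.0517 and 0.0525), GFP library 2 or 3 (0.0830 and 0.0994) and in 1 fit of all libraries (0.0845). Trim46, which organises microtubules at the start of the axon, had 0.40 (SE 0.07, adjusted p = 0.000266), and it overlaps Krtcap2 on the opposite strand, which was called higher too (0.52).

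Trim36 was lowest of the family in fold change. It had 0.838, 0.163 and 0.832 CPM in GADD45G libraries, against 2.87, 3.97 and 3.66 CPM in GFP libraries, without overlap (log2 fold change -2.51, SE 0.43, adjusted p = 0.000425). Trim3 stood at 47.9, 42.7 and 50.5 CPM in GADD45G libraries, against 69.5, 67.6 and 64.4 CPM in GFP libraries (-0.51, SE 0.06, adjusted p = 3.14e-05). Trim2, which ubiquitinates neurofilament light chain, stood at 124, 127 and 113 CPM in GADD45G libraries, against 170, 165 and 170 CPM in GFP libraries (-0.47, SE 0.05, adjusted p = 1.93e-05). Trim32, a promoter of neural progenitor differentiation, was lower by a small margin (-0.19, SE 0.05, adjusted p = 0.00777). The 8 neuron markers summed to 70.9 to 78.2 CPM in GADD45G libraries and 241 to 249 CPM in GFP libraries, with 7 of 7 tested called lower, and their part in the values of this group was not tested. Over all genes tested, 29.7% were called lower.

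Trim59 and Trim13 are anchored in membranes. Trim59 was called higher at 22.3, 25.4 and 21.8 CPM in GADD45G libraries, against 15.0, 17.3 and 16.5 CPM in GFP libraries (log2 fold change 0.51, SE 0.09, adjusted p = 0.000564). Trim13, a ligase of the endoplasmic reticulum, was called lower (-0.42, SE 0.13, adjusted p = 0.0169), a call lost without GFP library 1 or 2 (adjusted p = 0.0504 and 0.0727). Among members with no role group, Trim68 stood at 21.1, 24.99 and 22.0 CPM in GADD45G libraries, against 10.9, 12.7 and 11.8 CPM in GFP libraries (0.94, SE 0.10, adjusted p = 7.78e-06). Trim7, a binding partner of glycogenin, stood at 20.9, 23.3 and 19.3 CPM in GADD45G libraries, against 12.9, 12.3 and 11.4 CPM in GFP libraries (0.79, SE 0.10, adjusted p = 3.02e-05). Both were higher in every GADD45G library, and Trim17, Trim41 and Trim44 were not called. The 4 muscle members Trim54, Trim55, Trim63 and Trim72 and the erythroid member Trim10 were listed with too few counts to test, as were Trim29, Trim43a, Trim43c, Trim61, Trim69, Trim75 and Trim80. The 15 untested members had 2 to 42 counts over the 6 libraries.

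**Figure D4:**
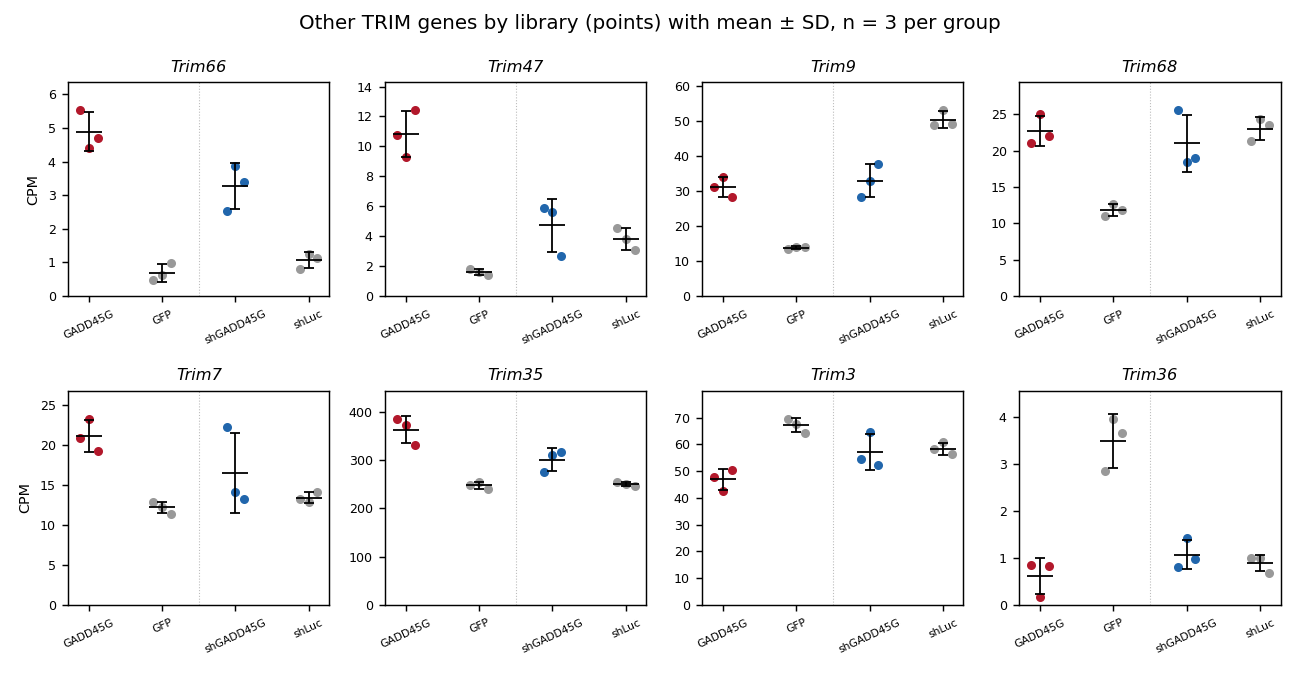
CPM of 8 TRIM genes outside the antiviral class in each library (points) with the group mean and SD as a bar, 3 libraries per group, each panel from 0 and on its own scale, with the 2 experiments set apart by a dotted line. Trim9 is higher in GADD45G than in GFP libraries (28.3 to 33.9 CPM against 13.3 to 14.1 CPM) and lower in shGADD45G than in shLuc libraries (28.2 to 37.7 CPM against 48.9 to 53.03 CPM), whereas Trim66 is higher in both.

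The knockdown experiment posed the converse question, with shLuc as its control, and few TRIM genes passed the test. Of 42 tested members, 5 were called higher, 1 was called lower and 36 were not called, where 10.4% of the 14914 genes tested were called, 5.15% higher and 5.27% lower. Among 13 antiviral genes 3 were called higher and 0 lower in edgeR, and the median log2 fold change was 0.22, against 0.01 over all genes tested. At an unadjusted p under 0.05, 1 antiviral gene was lower (Trim14), and DESeq2 and limma-voom called 0 lower. Of 29 other members 2 were called higher and 1 lower, with a median of 0.11. In 11 of the 42 tested members every shGADD45G library lay above every shLuc library, where 16.1% of all genes tested did so, and in 2 every one lay below; groups did not overlap in 32.5% of all genes tested. Trim66 was the 1 member called and at least 2-fold higher, where 0.711% of all genes tested were. The summed antiviral level was 560, 587 and 597 CPM in shGADD45G libraries, against 459, 458 and 470 CPM in shLuc libraries. These sums did not overlap, and the gap was far narrower than in the overexpression experiment.

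Trim30a stood at 80.2, 105 and 120 CPM in shGADD45G libraries, against 60.1, 61.7 and 67.7 CPM in shLuc libraries. Its groups did not overlap, although shGADD45G library 1 was well below the other two (log2 fold change 0.69, SE 0.13, adjusted p = 0.0107). Trim30d stood at 56.0, 60.4 and 64.0 CPM in shGADD45G libraries, against 39.1, 38.0 and 38.3 CPM in shLuc libraries (0.64, SE 0.09, adjusted p = 0.00179). Trim25 stood at 78.8, 91.3 and 93.5 CPM in shGADD45G libraries, against 67.2, 65.9 and 58.7 CPM in shLuc libraries (0.46, SE 0.10, adjusted p = 0.0143). These were the 3 antiviral calls. Trim30d kept its call whichever library was left out, whereas that of Trim30a was lost without shLuc library 1 or 2 (adjusted p = 0.0662 and 0.0638) and that of Trim25 without any single shLuc library (0.0587, 0.0680 and 0.0938 without library 1, 2 and 3).

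The other antiviral genes did not pass the test in this experiment. Trim12c came nearest, at 69.6, 65.3 and 76.3 CPM in shGADD45G libraries, against 55.0, 57.9 and 58.1 CPM in shLuc libraries, without overlap (log2 fold change 0.30, SE 0.09, adjusted p = 0.0521). It was called without shGADD45G library 1 or 2 (adjusted p = 0.0328 and 0.0394), in DESeq2 (0.0441) and in 1 fit of all libraries (0.00584), as was Trim5 without library 1 (0.0297) and Trim26 without library 3 (0.0214). Trim14 had 0.700, 0.685 and 0.655 CPM in shGADD45G libraries, against 1.24, 2.26 and 1.26 CPM in shLuc libraries. All 3 shGADD45G libraries lay below all shLuc libraries, and the gene was not called (-1.22, SE 0.36, adjusted p = 0.0627) except in 1 fit of all libraries (0.0183). Trim34a, 4.38-fold higher in GADD45G libraries, stood at 26.4, 32.3 and 30.4 CPM in shGADD45G libraries and 32.9, 31.6 and 32.4 CPM in shLuc libraries, which overlapped (-0.12, SE 0.10, adjusted p = 0.517). The remaining values lay between -0.04 in Trim6 and 0.54 in Trim5, with Trim21 at 0.26, Trim26 at 0.22, Trim12a at 0.20, Trim65 at 0.12 and Trim56 at 0.11. Trim15, Trim30b, Trim30c, Trim34b and Trim38 were not tested.

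Of the other members Trim66 was called higher at 2.53, 3.88 and 3.40 CPM in shGADD45G libraries, against 0.803, 1.26 and 1.14 CPM in shLuc libraries. It had the largest fold change of the family here, with no overlap (log2 fold change 1.60, SE 0.29, adjusted p = 0.00834), a call lost without shLuc library 1 (0.0546). Trim59 stood at 17.9, 21.2 and 23.3 CPM in shGADD45G libraries, against 15.0, 14.5 and 14.8 CPM in shLuc libraries (0.49, SE 0.13, adjusted p = 0.0354). Its call was lost in every fit that left out a library except shGADD45G library 1, with adjusted p up to 0.160. Trim9 was the 1 member called lower, at 28.2, 32.9 and 37.7 CPM in shGADD45G libraries, against 48.9, 53.03 and 49.1 CPM in shLuc libraries (-0.62, SE 0.11, adjusted p = 0.00848), a call lost without shLuc library 2 (0.0592). Outside the antiviral class, 4 genes had every shGADD45G library above every shLuc library and were not called: Trim16 (0.66, adjusted p = 0.0571), Trim28 (0.27, adjusted p = 0.0562), Trim35 (0.26, adjusted p = 0.0656) and Trim46 (0.21, adjusted p = 0.236).

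The count of 5 higher members rested on single libraries. It was 12 without shGADD45G library 1, the library with the lowest Gadd45g level and, at 27.0 CPM, the lowest microglia and macrophage marker sum. It was 6 without shGADD45G library 2 or 3, and 1, 2 and 3 without shLuc library 1, 2 and 3. The number of all genes called moved too. It was 1554 with every library, 2745 without shGADD45G library 1 and 538 without shLuc library 2. The shGADD45G libraries were also the most dispersed group, with a chi-square per degree of freedom of 20.5 to 41.0 between pairs of libraries, against 2.23 to 2.98 in shLuc libraries, where 1 is counting error.

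Set side by side, 42 members were tested in both experiments, which have separate controls. All 5 members called higher in shGADD45G libraries, Trim25, Trim30a, Trim30d, Trim59 and Trim66, were also called higher in GADD45G libraries. Over all genes, 768 were called higher in shGADD45G libraries and 411 were called higher in both experiments. These 411 were 2.81% of the 14624 genes tested in both, and 3.01% were called in opposite directions. Trim9 was the 1 member called in opposite directions. The differences were of unequal size: 3.11 and 0.69 for Trim30a, 2.46 and 0.64 for Trim30d, 1.47 and 0.46 for Trim25, and 2.82 and 1.60 for Trim66, in the overexpression and the knockdown experiment in that order. For Trim59 they were 0.51 and 0.49. Trim9 averaged 2.16 FPKM in GADD45G libraries and 2.31 FPKM in shGADD45G libraries, in the authors' deposited values. It averaged 0.96 FPKM in GFP libraries and 3.56 FPKM in shLuc libraries. Its opposite calls thus go with unequal controls, and the cause of that inequality was not tested.

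Whether the 2 differences were themselves unequal was tested in a fit of all 12 libraries. Of 44 members 22 passed, where 41.0% of all 15900 genes tested did, with the difference more positive in the overexpression experiment for 16 (background 20.2%) and more negative for 6 (background 20.7%). Antiviral genes made up 9 of the 16 and 1 of the 6, Trim65. The overexpression minus knockdown difference was 3.57 in Trim14, 2.42 in Trim30a, 2.24 in Trim34a, 1.81 in Trim30d, 1.19 in Trim21 and 1.00 in Trim25 (log2 scale, adjusted p from 1.56e-09 to 1.97e-05, edgeR). It was 0.99 in Trim6, 0.54 in Trim12a, 0.28 in Trim12c and -0.75 in Trim65. Among members outside the antiviral class that passed, it was 2.42 in Trim47, 1.79 in Trim9, 1.21 in Trim66, 1.07 in Trim68, 0.90 in Trim62, 0.40 in Trim23 and 0.28 in Trim35. It was negative at -2.78 in Trim36, -0.49 in Trim3, -0.45 in Trim2, -0.35 in Trim28 and -0.30 in Trim32. Controls were unequal for some of these members too. In the authors' deposited FPKM, GFP and shLuc libraries averaged 6.82 and 15.4 in Trim30a and 5.82 and 12.5 in Trim34a. The averages were 0.584 and 1.40 in Trim47 and 0.715 and 0.184 in Trim36. They were closer in Trim12a (5.36 and 5.60) and Trim12c (15.8 and 15.3). The part of unequal controls in these differences was not tested. For 22 members, among them Trim5, Trim26, Trim30b, Trim34b, Trim56 and Trim59, the difference did not pass, which does not show that the 2 effects are equal. In this test Trim12c lost its call without GFP library 2 or 3 or shLuc library 2 (adjusted p up to 0.0535), and Trim23 without GADD45G library 2 or GFP library 3 (up to 0.0561). Trim32 lost it without GADD45G library 3, any GFP library or shLuc library 1 or 2 (up to 0.124), and in the fit without a filter (0.0572). Trim35 lost it without GADD45G library 1 or 2, any GFP library or shLuc library 2 (up to 0.0914). Trim66 lost it without GADD45G library 1, GFP library 1 or 2, shGADD45G library 1 or shLuc library 2 or 3 (up to 0.0921).

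The surrounding pathway was read from a list of 21 genes of nucleic acid sensing and interferon signalling. Beside shares of 30.6% higher and 29.7% lower over all genes tested, 12 of the 21 were called higher and 2 lower in GADD45G libraries. The highest was Isg15, a ubiquitin-like modifier, at a log2 fold change of 5.33, and others were Irf7 at 4.76, Dhx58 at 4.06, Ifih1, the gene of MDA5, at 2.25, Stat2 at 2.08, Irf9 at 1.79 and Ddx58, the gene of RIG-I, at 1.61. The receptor gene Ifnar1 was called lower (-0.95), as was the kinase gene Tyk2 (-0.22), and 7 genes including Mavs and Tbk1 were not called. In shGADD45G libraries 6 of 20 were called higher, Isg15 (0.80), Irf7 (0.77), Ifih1 (0.65), Irf9 (0.40), Stat2 (0.39) and Ifnar1 (0.32), and 2 lower, Tmem173 (-1.77) and Ikbke (-0.47). Over all genes tested in the knockdown experiment, 5.15% were called higher and 5.27% lower. Of TRIM genes under other names, Pml, which forms nuclear bodies, was called higher in GADD45G libraries (1.07) and in shGADD45G libraries (0.54). Mid1 and Mid2, microtubule-binding ligases, were called higher (0.33) and lower (-0.44) in GADD45G libraries and were not called in shGADD45G libraries.

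At an adjusted p under 0.05 in the authors' deposited table of the overexpression experiment, 28 of the 59 members listed were higher (14 antiviral) and 6 lower (1 antiviral), where 16.2% of all 25923 genes in the authors' deposited table were higher and 16.1% lower. In the authors' deposited table of the knockdown experiment, 9 of 56 were higher (4 antiviral) and 1 lower (not antiviral), where 3.71% of all 24509 genes were higher and 3.83% lower.

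Per length, the order of the family differed between GADD45G and GFP libraries. In the authors' deposited FPKM, averaged here over 3 libraries, Trim30a ranked 2 of the 59 listed members in GADD45G libraries at 58.3 FPKM, and 17 in GFP libraries at 6.82 FPKM. Trim30d ranked 5 in GADD45G libraries at 33.8 FPKM, and 19 in GFP libraries at 6.17 FPKM. In shGADD45G libraries Trim30a ranked 6 of 56 at 24.7 FPKM, and it ranked 8 in shLuc libraries at 15.4 FPKM. Trim35 and Trim44 were the 2 most abundant members per length in GFP, shGADD45G and shLuc libraries.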

How the data were processed

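Total RNA of 12 astrocyte libraries was sequenced with stranded kits, per the labels' protocols, and the submitters' processing notes name STAR 2.5, mm10, HTSeq 0.6.1 and DESeq2. The authors deposited 1 table per experiment with whole-number read counts per gene, as the file headers name them. The deposited FPKM values are the authors' counts scaled for gene length and library total. The log2 fold changes, p-values and adjusted p-values in the deposited tables are the authors' own. The knockdown table's control columns are named shCtrl, and they were read as the shLuc libraries.

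Each experiment was fitted on its 6 libraries with edgeR 4.0.16 in R 4.3.3: TMM factors, filterByExpr, quasi-likelihood F test, Benjamini-Hochberg adjustment over all genes tested, called under 0.05, no covariate. CPM used TMM factors, n = 3 per group. The difference of effects came from 1 fit of 12 libraries over genes listed in both tables. SE is the fold change divided by the square root of F. The steps were tested on simulated data. Alternatives were other scaling factors (RLE, upper quartile), DESeq2 1.42.0, limma-voom 3.58.1, other filters, a 2-fold minimum, single libraries left out, the replicate number as a block, and 1 fit of all libraries.

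Members, lists and role groups were chosen with earlier results of these data known, so counts over them describe the family and are not independent evidence. Named were all tested antiviral members and up to 8 other called members per direction with the smallest adjusted p, the rest by fold change or count; neighbours overlapping a member were named after their values were seen. Sharing of 50-base windows used GENCODE M21 transcripts, in which all 60 members were found. Trim12b and Trim31 of the antiviral list of 20, and protein sequences, were not analysed here.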

Additional observations from a re-analysis of the deposited data

How the results depend on the processing

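In the overexpression experiment the counts moved by less than 1.5 times under other scaling, DESeq2, limma-voom, other filters, the replicate block, single libraries left out and 1 fit of all libraries. Without single libraries, TRIM members called higher numbered 24 to 32 and lower 5 to 8, antiviral members 12 to 13 higher and 1 to 1 lower, other members 12 to 19 and 4 to 7, and all genes 8342 to 10143; the antiviral median was 1.26 to 1.44 and the other median 0.26 to 0.31. The antiviral median was 1.35 with limma-voom. A 2-fold minimum left 11, 8 and 3 members higher (all, antiviral, other), 1, 0 and 1 lower, and 2884 genes.

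In the knockdown experiment the counts depended more on the processing. DESeq2 called 9 members higher, 5 of them other members. One fit of all libraries called 9 higher, 5 of them other members, 2 lower, 1 of them antiviral (Trim14, adjusted p = 0.0183), and 2670 genes. A 2-fold minimum left 1, 0 and 1 members higher, 0 and 0 lower (all and other) and 438 genes. Without single libraries, members called higher ranged from 1 to 12, antiviral 1 to 5, other 0 to 7, lower members 0 to 1, antiviral 0 to 0, other 0 to 1, and all genes 538 (without shLuc library 2) to 2745 (without shGADD45G library 1); medians were 0.19 to 0.24 (antiviral) and 0.10 to 0.15 (other). Trim6, at -0.04 and not called, was at 0.05, 0.11 and 0.05 without shGADD45G library 1, shGADD45G library 2 and shLuc library 2, again not called; leaving out 1 library moved it between -0.31 and 0.11. The members passing the test of unequal effects numbered 18 to 23 without single libraries. The cause of these shifts was not tested.

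Deviations of same-numbered libraries from their group means had correlations from -0.02 to 0.08, against -0.08 to 0.03 for unlike numbers. Such values cannot show whether a number marks a shared culture. With the replicate number as a block, 29 members were higher and 6 lower in the overexpression experiment. In the knockdown experiment 5 were then higher and 1 lower, and 22 passed the test of unequal effects. The 15 and 14 members left untested in the overexpression and knockdown experiments had at most 42 counts each over the libraries of that experiment, below the filter on low counts.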
